A study of Mus musculus with 9 samples.

Results

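The genes described are Cyp4b1, F5, Hephl1, Slit1 and Rhag, 5 of the 54532 genes in the deposited tables, chosen by the values that follow: low or near 0 in the Undifferentiated and Differentiated groups and raised in the Lysfree group. Because these levels selected them, the levels are given as a description with no test. The gene symbols were matched to the symbol column of the count and FPKM tables, and each matched 1 gene. The measured levels went against this description for Hephl1, which was as high in Differentiated as in Lysfree, and only in part for Cyp4b1, which already had counts in every Differentiated library.

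Poly A RNA was sequenced from 3T3-L1 cells, a clonal mouse line of embryonic fibroblast origin that turns into fat cells under a hormone mix, in 9 libraries, 3 for each of the groups Undifferentiated, Differentiated and Lysfree. Cells of all groups were first kept confluent for 3 days in DMEM with bovine calf serum, and Undifferentiated cells received no hormone mix. Differentiated cells received insulin at 10 µg/mL, dexamethasone at 1 µM, rosiglitazone at 1 µM and IBMX at 0.5 mM, in a DMEM made without arginine and lysine to which the amino acids were added back with fetal bovine serum, for 3 days. Lysfree cells received that same mix for the same time without the added lysine, in a medium that the study measured to hold traces of it. Lysfree and Differentiated therefore differ in lysine, whereas Lysfree and Undifferentiated also differ in hormones, serum and medium. They may differ in time in culture too, as the study's methods give no harvest time for Undifferentiated. The labels do not say whether replicates came from separate cultures, so p-values measure the spread between these libraries, which may be technical.

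None of the 5 genes is a classical fat cell gene. Cyp4b1 encodes a cytochrome P450 monooxygenase of lung and other epithelia that acts on fatty acids and foreign compounds. F5 encodes coagulation factor V, a secreted plasma protein made by the liver and carried in platelets, which as factor Va is the cofactor of factor Xa in making thrombin. Hephl1 encodes a membrane ferroxidase of the hephaestin and ceruloplasmin family, copper proteins that oxidise iron as it leaves cells. Slit1 encodes a secreted guidance protein that repels growing axons through Robo receptors. Rhag encodes the Rh-associated glycoprotein of the red cell membrane, which carries ammonium and gases across it and anchors the Rh complex.

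Total counts were 15880144 to 21806693 per library, with a median of 17784064, so that a floor of 3 counts stood for 0.138 to 0.189 CPM (counts scaled to library size). The library Lysfree 1 stood apart from its replicates: of 10370 genes with a mean of at least 100 counts, 275 differed over 2-fold from the other Lysfree libraries, against 4 to 15 in each of the other 8 libraries. Genes of at most 600 bases had a median log2 deviation of -0.47 in Lysfree 1, whereas genes of at least 3000 bases had 0.04, and reads of mitochondrial genes were 1.60% of its counts against 0.879% and 0.906% in Lysfree 2 and Lysfree 3. Results that rest on Lysfree 1 are therefore given with and without it. The summed FPKM (fragments scaled to gene length and library size) of 10 adipocyte markers was 6978 to 7275 in Differentiated and 236 to 319 in Lysfree. In Undifferentiated it was 359 to 476, above Lysfree. All 8 fibroblast markers were above 1 FPKM in each group, which matches the labelled cell type. In these bulk samples, fewer cells of a type and less RNA per cell cannot be told apart.

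Cyp4b1 (ENSMUSG00000028713, mm10 chr4:115624725-115647723, minus strand, 12 exons) reached the highest level per length of the 5 genes. Its counts were 7, 1 and 2 in Undifferentiated 1 to 3, then 21, 33 and 25 in Differentiated and 646, 583 and 614 in Lysfree. The groups did not overlap, and the order of levels was Undifferentiated, Differentiated, Lysfree. Its FPKM was 0.0737 ± 0.0647 (SD, n = 3) in Undifferentiated, 0.691 ± 0.0920 in Differentiated and 14.6 ± 1.47 in Lysfree, with 16.3, 13.6 and 14.0 in the 3 Lysfree libraries. Cyp4b1 thus stood above 82.9% of the 21539 genes with any count in Lysfree. Its mean scaled count was 22.1 times as high in Lysfree as in Differentiated (95% counting interval 17.5 to 27.8) and 205 times as high as in Undifferentiated (109 to 421). Differentiated stood 9.21 times above Undifferentiated (4.72 to 19.8), so a rise was present with lysine in the medium too. All such intervals cover counting error only. Without Lysfree 1 the ratios were 21.0 and 194.

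F5 (ENSMUSG00000026579, mm10 chr1:164151838-164220277, plus strand, 25 exons) was at or next to nothing outside Lysfree. Its counts were 4, 1 and 0 in Undifferentiated, 2, 4 and 0 in Differentiated and 105, 117 and 170 in Lysfree. The Lysfree libraries lay far above the other 6, which overlapped each other. Its FPKM was 0.0105 ± 0.0132 (SD, n = 3) in Undifferentiated, 0.0154 ± 0.0146 in Differentiated and 0.936 ± 0.210 in Lysfree, with 0.804, 0.826 and 1.18 in the 3 Lysfree libraries. Even when raised, this was a modest transcript, above 47.5% of the genes with a count in Lysfree. The ratio was 63.4 against Differentiated (95% counting interval 27.9 to 168) and 92.5 against Undifferentiated (36.4 to 265). These ratios rest on 6 and 5 counts in all. Without Differentiated 2, which held 4 of the 6, the first was 38.4 with the remaining libraries set at the floor of 3 counts, without Differentiated 3 it was 42.2, and without Undifferentiated 1 the second was 44.3 by the same reckoning. Without Lysfree 1 they were 68.1 and 99.4.

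Slit1 (ENSMUSG00000025020, mm10 chr19:41600257-41743665, minus strand, 36 exons) showed the same arrangement. Its counts were 10, 6 and 3 in Undifferentiated, 4, 6 and 0 in Differentiated and 216, 272 and 277 in Lysfree. Undifferentiated and Differentiated overlapped, and every Lysfree library lay above both. Its FPKM was 0.0524 ± 0.0244 (SD, n = 3) in Undifferentiated, 0.0327 ± 0.0288 in Differentiated and 2.30 ± 0.193 in Lysfree, with 2.08, 2.41 and 2.41 in the 3 Lysfree libraries. The ratio was 73.4 against Differentiated (95% counting interval 38.8 to 150) and 45.4 against Undifferentiated (28.0 to 73.5). The first ranged from 49.0 without Differentiated 3 to 110.2 without Differentiated 2, so its size depends on a few counts in the low group. Without Lysfree 1 the ratios were 77.3 and 47.8.

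Rhag (ENSMUSG00000023926, mm10 chr17:40811126-40840754, plus strand, 10 exons) was the only gene of the 5 whose Differentiated libraries were all at the floor. Its counts were 6, 11 and 3 in Undifferentiated, 2, 0 and 0 in Differentiated and 287, 197 and 196 in Lysfree. Every Lysfree library lay above both other groups. The group means ran in the order Differentiated, Undifferentiated, Lysfree. Undifferentiated and Differentiated were kept apart only by 3 counts in Undifferentiated 3 against 2 in Differentiated 1. Its FPKM was 0.138 ± 0.0689 (SD, n = 3) in Undifferentiated and 5.24 ± 1.51 in Lysfree, with 6.98, 4.42 and 4.32 in the 3 Lysfree libraries, and 0.0553, 0 and 0 in the Differentiated libraries. Lysfree summed to 680 counts against 2 in Differentiated, a ratio of 297 with a 95% counting interval of 87.9 to 2637. Set against a floor of 3 counts in each Differentiated library, the ratio was 71.0, or 59.5 without Lysfree 1. Against Undifferentiated it was 39.1 (23.9 to 61.2), or 32.8 without Lysfree 1. The few Undifferentiated counts, 20 against 2, gave a Differentiated over Undifferentiated ratio of 0.130 (0.0131 to 0.476) with no floor set, and it rests on a group at the floor.

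Hephl1 (ENSMUSG00000031936, mm10 chr9:15051841-15112108, minus strand, 20 exons) did not follow the other 4. Its counts were 4, 2 and 1 in Undifferentiated, 91, 85 and 112 in Differentiated and 113, 116 and 87 in Lysfree. Differentiated and Lysfree overlapped, and both lay above Undifferentiated. Its FPKM was 0.0216 ± 0.0125 (SD, n = 3) in Undifferentiated, 1.101 ± 0.226 in Differentiated and 1.08 ± 0.197 in Lysfree, with 1.22, 1.16 and 0.852 in the 3 Lysfree libraries. The Lysfree over Differentiated ratio was 1.02, with a 95% counting interval of 0.874 to 1.21, and it ranged from 0.926 to 1.13 when single libraries were left out. The ratio to Undifferentiated was 51.4 in Lysfree (23.7 to 124) and 50.01 in Differentiated (22.8 to 119). Without Undifferentiated 1, which held 4 of its 7 counts, the Lysfree ratio was 36.1, with the remaining libraries set at the floor. Hephl1 was thus low in Undifferentiated alone, and between Lysfree and Differentiated it differed by less than the spread between libraries.

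**Figure D1:**
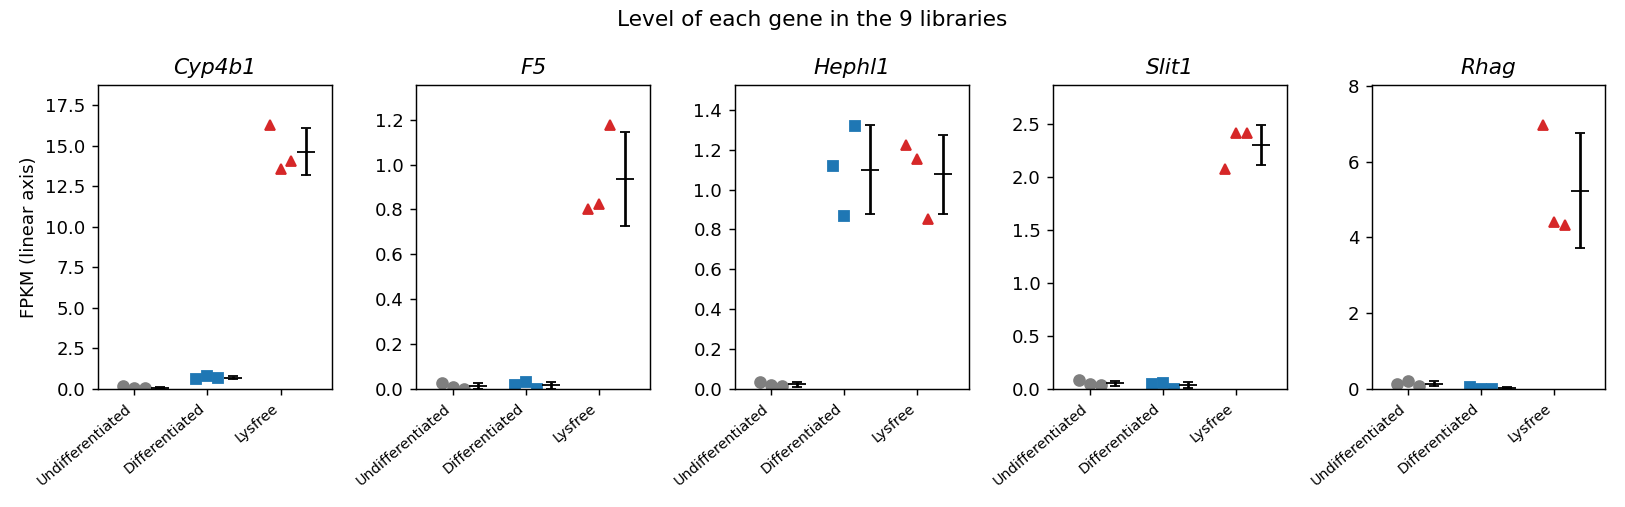
FPKM of Cyp4b1, F5, Hephl1, Slit1 and Rhag (1 panel each, linear axis from 0) in the 3 Undifferentiated, 3 Differentiated and 3 Lysfree libraries; points are libraries and the black marks the mean ± SD. In 4 panels the Lysfree points stand alone above the rest, while for Hephl1 the Differentiated points (0.867 to 1.32) and Lysfree points (0.852 to 1.22) overlap.

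**Figure D2:**
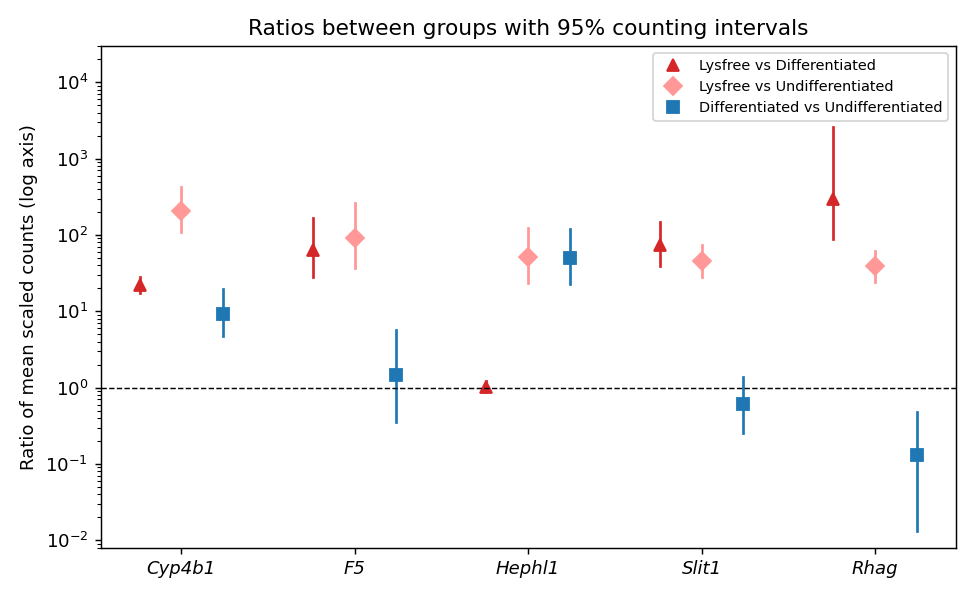
Ratio of mean scaled counts between groups for each of the 5 genes (log axis), for Lysfree over Differentiated, Lysfree over Undifferentiated and Differentiated over Undifferentiated; lines are 95% counting intervals, no floor is set, and the dashed line marks equal levels. Hephl1 sits at 1.02 for Lysfree over Differentiated, and Rhag has the widest interval there, 87.9 to 2637, since only 2 counts were found in Differentiated.

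The selecting values in order give the scale of these differences. Every Lysfree library lay above every Differentiated library for 4 of the 5 genes, where 23.2% of all 24130 genes did so, and above every Undifferentiated library for 5 of 5, where 21.6% of 23994 genes did. Nothing is read from these counts, as the same values chose the genes. Among all genes ranked by fitted rise over Undifferentiated, Cyp4b1 was number 1, F5 number 6, Hephl1 number 18, Slit1 number 23 and Rhag number 31. Ranked by rise over Differentiated, Slit1 was number 22, F5 number 31, Cyp4b1 number 163 and Hephl1 number 11245, and no rank is given for Rhag, whose Differentiated libraries were at the floor. Cyp4b1, Hephl1 and, by less, F5 thus stood lower in the order when Differentiated was the reference.

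In Lysfree, the level per length fell in the order Cyp4b1, Rhag, Slit1, Hephl1, F5. Hephl1 and F5 overlapped (0.852 to 1.22 and 0.804 to 1.18 FPKM), and the other neighbours in this order did not. The spread between the Lysfree libraries differed between genes. The coefficient of variation was 8.70% for Cyp4b1, 9.60% for Slit1, 17.6% for Hephl1, 23.3% for F5 and 27.4% for Rhag, while counting alone would give 4.03% to 9.74%. The median over 5712 genes with a mean of 100 to 1000 counts was 11.7% (quartiles 6.79% and 18.7%), so F5 and Rhag varied more than 3 in 4 of these. Lysfree 1 was not low or high for all 5: its FPKM over the mean of Lysfree 2 and Lysfree 3 was 1.60 for Rhag, 1.22 for Hephl1, 1.18 for Cyp4b1, 0.861 for Slit1 and 0.802 for F5. The genes are 2339, 5261, 2256, 5921 and 7430 bases long in that order. The part of library quality in this spread was not tested.

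To show what surrounds the start of the genes that rose, the promoter windows of RefSeq (GRCm38.p6, 250 bases before the start and 50 after it) are given, with motif matches in capitals; 4 of the 5 genes matched an entry. Cyp4b1 is chr4:115647672-115647971 on the minus strand, F5 chr1:164151585-164151884 on the plus strand, Hephl1 chr9:15112059-15112358 on the minus strand and Rhag chr17:40810899-40811198 on the plus strand. All run 5′ to 3′ towards the gene.
Cyp4b1: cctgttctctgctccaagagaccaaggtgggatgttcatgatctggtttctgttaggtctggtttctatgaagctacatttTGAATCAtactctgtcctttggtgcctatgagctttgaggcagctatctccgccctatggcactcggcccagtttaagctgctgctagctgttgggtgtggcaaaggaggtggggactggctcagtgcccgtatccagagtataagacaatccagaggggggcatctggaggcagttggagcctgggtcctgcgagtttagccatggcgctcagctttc
F5: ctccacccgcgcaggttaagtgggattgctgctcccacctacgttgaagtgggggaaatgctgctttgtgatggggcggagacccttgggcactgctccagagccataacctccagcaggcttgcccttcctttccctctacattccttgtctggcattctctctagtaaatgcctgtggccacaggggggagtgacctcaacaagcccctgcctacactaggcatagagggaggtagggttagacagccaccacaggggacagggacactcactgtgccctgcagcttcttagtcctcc
Hephl1: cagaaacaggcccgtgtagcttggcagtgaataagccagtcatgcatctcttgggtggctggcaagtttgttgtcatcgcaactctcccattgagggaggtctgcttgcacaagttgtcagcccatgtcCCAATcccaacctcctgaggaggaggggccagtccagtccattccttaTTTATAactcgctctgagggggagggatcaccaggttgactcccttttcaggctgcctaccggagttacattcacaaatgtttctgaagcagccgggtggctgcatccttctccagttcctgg
Rhag: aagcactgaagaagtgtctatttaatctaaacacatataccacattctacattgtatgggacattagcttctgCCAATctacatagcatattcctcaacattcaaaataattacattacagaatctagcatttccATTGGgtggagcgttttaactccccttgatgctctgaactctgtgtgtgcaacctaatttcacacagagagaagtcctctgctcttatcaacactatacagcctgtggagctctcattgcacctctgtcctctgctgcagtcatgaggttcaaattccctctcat
The windows were searched on both strands for 8 motifs: the TATA box (TATAAA), the CCAAT box (CCAAT), the E box (CACGTG), the cAMP response element (TGACGTCA), the AP-1 site (TGANTCA), the element shared by C/EBP and ATF proteins (TGATGNAA), the C/EBP site (TTGCGCAA) and the GATA site (AGATAA). The window of Cyp4b1 held 1 match, the AP-1 site TGAATCA beginning at -169 from the start, and 7.81% of all 32851 windows held this motif. The window of Hephl1 held a TATA box on the opposite strand at -73 and a CCAAT box at -121, found in 13.6% and 37.4% of windows. The window of Rhag held CCAAT boxes at -177 and, on the opposite strand, at -115. None of the 8 motifs was in the window of F5, and no motif was in all 4. No matches overlapped. The other shares were 7.15% for the E box, 1.79% for the cAMP response element, 3.97% for the C/EBP and ATF element, 0.183% for the C/EBP site and 11.2% for the GATA site. The ratio of observed to expected CpG was 0.242 for Cyp4b1, 0.161 for F5, 0.232 for Hephl1 and 0.0858 for Rhag. All 4 lay below the median of 0.384 over all windows, but only F5 and Rhag lay below the lower quartile of 0.176. The GC content of the 4 windows was 53.0%, 57.7%, 53.7% and 40.7% in the same order of genes, with a median of 52.7% over all. A match of letters is a description, and no binding was measured.

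The 5 genes fell into different patterns across the 9 libraries. The Pearson r of log2 CPM was 0.986 between F5 and Slit1, 0.966 between Slit1 and Rhag, 0.935 between F5 and Rhag and 0.924 between Cyp4b1 and F5. It was 0.290 between Hephl1 and Rhag, 0.395 between Hephl1 and Slit1 and 0.521 between Hephl1 and F5, but 0.789 between Hephl1 and Cyp4b1, which are both higher in Differentiated than in Undifferentiated. Cyp4b1 was no closer to Hephl1 than to the others, with 0.862 to Slit1 and 0.790 to Rhag. These values come from 9 libraries in 3 groups and mostly restate the group levels, as 617 to 905 of 12289 genes had an r over 0.9 with each of the 5.

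The genes most like each of them, by the highest r over the 9 libraries, were mostly more abundant. For Cyp4b1 they were Grpel2, Pptc7, Tars, Mcu and Zcchc2 (r of 0.991 to 0.994). Of these, Tars, the threonyl-tRNA synthetase, stepped from 47.3 ± 0.877 FPKM (SD, n = 3) in Undifferentiated to 68.0 ± 0.709 in Differentiated and 111.7 ± 2.61 in Lysfree. For F5 they were Hbegf, Npc1, Rell1, Tex261 and Slit1 (0.986 to 0.993). Hbegf, a growth factor that binds the EGF receptor, was at 1.30 ± 0.258, 1.42 ± 0.179 and 7.33 ± 0.650 FPKM in the same order of groups. For Slit1 they were Krt80, Rammet, Npc1, F5 and 9330102E08Rik (0.986 to 0.994). Npc1, the lysosomal cholesterol transporter, was thus listed for both F5 and Slit1, at 6.29 ± 0.339, 6.50 ± 0.582 and 11.4 ± 0.423 FPKM. For Rhag they were Rnh1, Fnbp1l, Nme6, Ly6a and Bnip2 (0.989 to 0.994). Ly6a, the cell surface antigen Sca-1, fell from 94.1 ± 6.29 to 71.3 ± 3.39 and then stood at 390.0 ± 24.0 FPKM, the same order as the group means of Rhag. For Hephl1 they were Nop56, Bzw2, Ltv1, Gm12346 and Mybbp1a (0.993 to 0.996). Nop56, a nucleolar protein of ribosome assembly, was at 29.6 ± 0.826, 76.8 ± 3.86 and 75.4 ± 0.159 FPKM. On the FPKM scale 1 to 3 of each 5 were named again, so the order within these lists is loose.

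Few genes had nearly all of their counts in Lysfree. With at most 10 counts in each of the 6 other libraries and at least 30 in each Lysfree library, 9 genes were found, 8 of them protein coding: Slit1, Taf7l, F5, Maats1, Gm35507, Ret, Trim36, Vwf and Otog, in order of Lysfree FPKM. Slit1 and F5 were thus the first and the third of these, at 2.30 and 0.936 FPKM. Taf7l, a germ cell partner of the general transcription machinery also described in fat cells, was at 1.37 ± 0.380 FPKM, and Ret, a receptor tyrosine kinase of neural crest cells, at 0.593 ± 0.123. Rhag stood just outside, through 11 counts in Undifferentiated 2, and Cyp4b1 and Hephl1 were outside through 33 and 112 counts in a Differentiated library. At a limit of 3 counts, 1 gene was left, Maats1. By the same limits 60 genes were found for Differentiated and 15 for Undifferentiated.

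The families and partners of the 5 genes were then taken from 5 lists of 134 genes in all. DEGs were genes with an edgeR adjusted p under 0.05 and at least a 2-fold change. For Lysfree vs Differentiated, 102 of the 134 were tested, and 23 (22.5%) rose and 10 (9.80%) fell, where 8.14% of all genes tested rose and 10.5% fell. Their median log2 fold change was 0.39, against -0.06 over all genes. For Lysfree vs Undifferentiated, 14 of 105 (13.3%) rose and 17 (16.2%) fell, where 5.52% and 8.76% of all genes did, with a median of -0.20 against -0.02. For Differentiated vs Undifferentiated, 7 of 105 (6.67%) rose and 22 (21.0%) fell, where 10.4% and 11.4% of all genes did, with a median of -0.38 against 0.02. The 3 comparisons share libraries in pairs and are not independent.

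The rest of the family of Cyp4b1 had few changes. Of 19 other Cyp4 genes, 9 were at the floor in all 9 libraries. In Lysfree vs Differentiated 10 were tested, of which 2 rose and 1 fell, and in Lysfree vs Undifferentiated 3 of 9 rose and none fell. The genes that rose are weak transcripts. Cyp4a32, a fatty acid hydroxylase gene of the neighbouring cluster, had 0 counts in all 6 Undifferentiated and Differentiated libraries and 7, 9 and 7 in Lysfree (0.267 ± 0.0368 FPKM, edgeR adjusted p = 0.00146 vs Differentiated and 0.000867 vs Undifferentiated). Cyp4f39 had 0.0513 ± 0.0300, 0.0129 ± 0.0224 and 0.339 ± 0.151 FPKM in Undifferentiated, Differentiated and Lysfree (edgeR adjusted p = 0.00123 vs Differentiated), and its call against Undifferentiated (0.0076) was lost without Lysfree 1 (0.0639). Cyp4f40 rose against Undifferentiated alone, with 0.0668 ± 0.0295 against 0.358 ± 0.103 FPKM (edgeR adjusted p = 0.00382). The 4 most abundant of the other Cyp4 genes, Cyp4f13, Cyp4f16, Cyp4f17 and Cyp4v3, lay at 1.62 to 6.34 FPKM in Lysfree and changed by less than 2-fold in every comparison. Cyp4f18 was called lower in Lysfree than in Differentiated, from 0.128 FPKM to a value listed at 0, but leaving out Differentiated 2 (edgeR adjusted p = 0.0595) or Differentiated 3 (0.126) ended that call. The pseudogenes Cyp4b1-ps1 and Cyp4b1-ps2, which resemble Cyp4b1 in sequence, had 0 counts in all libraries. Of 6 lung epithelium markers 4 were at the floor throughout, and their summed FPKM was 3.00 to 4.45 in Undifferentiated, 4.31 to 5.05 in Differentiated and 3.97 to 4.37 in Lysfree, nearly all of it from Cyp2f2, which changed by less than 2-fold in each comparison.

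Around F5, the proteins that take factor V through the secretory pathway were present in all groups. Lman1 and Mcfd2, which form the cargo receptor for factors V and VIII, were at 29.0 ± 3.03 and 79.9 ± 4.90 FPKM (SD, n = 3) in Lysfree and changed by less than 2-fold in each comparison. F3, tissue factor, which starts coagulation, was at 62.2 ± 1.08 FPKM in Differentiated and 65.8 ± 2.48 in Lysfree (edgeR adjusted p = 0.209). F8, the nearest relative of factor V, was at 0.297 ± 0.0111 and 0.537 ± 0.0166 FPKM, a log2 fold change of 0.92 ± 0.20 (SE) that missed the 2-fold limit. F10 was listed at 0 in every library, and F2, prothrombin, at 0 in all Differentiated and Lysfree libraries. Of 35 genes of coagulation, anticoagulation and factor V secretion, 15 were at the floor in all libraries. In Lysfree vs Differentiated 5 of 23 rose and 3 fell, in Lysfree vs Undifferentiated 3 of 26 rose and 8 fell, and in Differentiated vs Undifferentiated 2 of 26 rose and 6 fell.

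Genes of that list with large changes have several roles. Vwf, von Willebrand factor, which carries factor VIII and tethers platelets, had 0.0107 ± 0.00930 FPKM in Differentiated and 0.325 ± 0.0499 in Lysfree, a log2 fold change of 4.88 ± 0.41 (SE, edgeR adjusted p = 2.75e-09). Kng1, kininogen, had 0 counts in Differentiated and 28 to 29 in each Lysfree library (edgeR adjusted p = 3.62e-07). Tfpi2, a protease inhibitor, fell from 1.57 ± 0.201 to 0.211 ± 0.0982 FPKM (edgeR adjusted p = 2.09e-06). Against Undifferentiated, Plat, tissue plasminogen activator, fell by 2.82 on the log2 scale, from 16.5 ± 0.479 to 2.26 ± 0.332 FPKM (edgeR adjusted p = 7.85e-19). Its level in Differentiated was lower still, 0.765 ± 0.0527 FPKM, so that it rose in Lysfree vs Differentiated (1.63 ± 0.17, edgeR adjusted p = 6.20e-08).

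Markers of cells that make or carry factor V were measured beside it. Of 8 hepatocyte markers 6 were at the floor in all libraries, Alb and Ttr among them at 0, and their summed FPKM was 0.0714 to 0.171 in Lysfree, 0.0679 to 0.105 in Differentiated and 0.115 to 0.263 in Undifferentiated. Of 7 platelet and megakaryocyte markers 2 were at the floor throughout, and the sum was 1.78 to 2.22 FPKM in Lysfree, 0.797 to 1.25 in Differentiated and 8.01 to 9.27 in Undifferentiated. Most of this was Itga2b. The sum of 4 endothelial markers was 0.248 to 0.272 FPKM in Lysfree, 0.0810 to 0.201 in Differentiated and 0.0646 to 0.126 in Undifferentiated, with 1 marker at the floor throughout. Of these Tek, at 13 to 14 counts in each Lysfree library, was called higher in Lysfree than in Differentiated (edgeR adjusted p = 0.00047) and Undifferentiated (0.0172). Pecam1, Cdh5 and Kdr were not called in either comparison. The part of these markers in the levels of F5 and Vwf was not tested. Of 5 blood leukocyte markers 4 were at the floor in all libraries, and the sum, nearly all Cd68, was 1.49 to 1.79 FPKM in Undifferentiated, 3.40 to 5.01 in Differentiated and 3.62 to 4.85 in Lysfree.

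The family of Hephl1 split. Cp, ceruloplasmin, its secreted relative, was at 5.06 ± 0.318 FPKM in Undifferentiated, 1.69 ± 0.176 in Differentiated and 6.84 ± 1.31 in Lysfree, so it rose over Differentiated by 2.08 ± 0.13 on the log2 scale (SE, edgeR adjusted p = 4.64e-11) where Hephl1 stood level. Heph, hephaestin, was at 0.738 ± 0.00333, 0.612 ± 0.127 and 0.302 ± 0.108 FPKM, lower in Lysfree than in Undifferentiated by -1.25 ± 0.24 on the log2 scale (edgeR adjusted p = 6.40e-05). Slc40a1, ferroportin, the iron exporter that these ferroxidases serve, fell from 8.41 ± 0.393 FPKM in Undifferentiated to 0.925 ± 0.0210 in Differentiated and 1.44 ± 0.0154 in Lysfree (log2 fold change of -2.50 ± 0.12 in Lysfree vs Undifferentiated, edgeR adjusted p = 9.56e-18). Tfrc, the transferrin receptor that brings iron in, was higher in Lysfree than in Undifferentiated by 1.74 ± 0.12 (edgeR adjusted p = 5.30e-14), with 8.95 ± 0.631 and 29.0 ± 5.94 FPKM. In Differentiated Tfrc was at 53.1 ± 1.96 FPKM. In the 2 groups with Hephl1 raised, Slc40a1 was thus lower and Tfrc higher than in Undifferentiated. Between these 2 groups Tfrc differed by -0.81 ± 0.11 in Lysfree vs Differentiated (edgeR adjusted p = 2.99e-06), short of the 2-fold limit, where Hephl1 stood level.

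Of 32 genes of iron and copper handling, 9 of 30 tested rose and 4 fell in Lysfree vs Differentiated, 5 rose and 5 fell in Lysfree vs Undifferentiated, and 4 rose and 8 fell in Differentiated vs Undifferentiated. Lox, lysyl oxidase, the copper enzyme that crosslinks collagen through its lysines, was at 20.04 ± 1.23 FPKM in Differentiated and 178 ± 23.0 in Lysfree (log2 fold change of 3.21 ± 0.10, edgeR adjusted p = 5.19e-16). In Undifferentiated it was at 468 ± 29.0 FPKM, above Lysfree (-1.35 ± 0.10 for Lysfree vs Undifferentiated, edgeR adjusted p = 1.81e-13). Steap1, of the metalloreductase family, was at 16.0 ± 2.18 and 101.6 ± 2.03 FPKM (2.73 ± 0.11, edgeR adjusted p = 2.32e-14). Slc39a8, a metal importer, was at 0.114 ± 0.0319 and 0.654 ± 0.143 FPKM (2.60 ± 0.28, edgeR adjusted p = 1.52e-07). Aco1, cytosolic aconitase and iron regulatory protein, fell from 134.6 ± 0.717 to 21.2 ± 1.34 FPKM (-2.60 ± 0.09, edgeR adjusted p = 1.50e-15). Against Undifferentiated, Lcn2, the siderophore-binding lipocalin, had the largest rise, from 3.87 ± 0.129 to 39.2 ± 3.22 FPKM (3.39 ± 0.12, edgeR adjusted p = 6.28e-21). Of 8 keratinocyte markers, cells in which Hephl1 is known, 3 were at the floor in all libraries, and their sum was 4.32 to 5.13 FPKM in Undifferentiated, 3.92 to 4.85 in Differentiated and 3.71 to 5.19 in Lysfree, most of it from Krt10. Within it Trp63 rose from 0.161 ± 0.0475 FPKM in Differentiated to 1.01 ± 0.181 in Lysfree (2.71 ± 0.24 on the log2 scale, edgeR adjusted p = 5.93e-09) and also over Undifferentiated (1.14 ± 0.21, edgeR adjusted p = 3.30e-05), while Krt14 fell from 0.365 ± 0.0586 to 0.0608 ± 0.0292 FPKM (edgeR adjusted p = 0.00517). In Differentiated vs Undifferentiated, Krt14 was called higher (4.75 ± 1.02 on the log2 scale, edgeR adjusted p = 1.13e-05), and so was Ivl (edgeR adjusted p = 0.0125). Both had 12 counts or fewer in every library. Trp63 (edgeR adjusted p = 1.19e-09) and Sfn (edgeR adjusted p = 0.004) were called lower in that comparison. The part of these markers in the level of Hephl1 was not tested.

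Slit1 had the lowest level of the 3 Slit ligands in every group. Slit3 was at 49.8 ± 4.63, 23.9 ± 1.90 and 33.5 ± 2.16 FPKM (SD, n = 3) in Undifferentiated, Differentiated and Lysfree, and was not called in Lysfree vs Differentiated or Lysfree vs Undifferentiated. Slit2 was at 3.65 ± 0.360, 0.546 ± 0.0162 and 3.07 ± 0.356 FPKM. It rose in Lysfree over Differentiated by 2.55 ± 0.12 on the log2 scale (SE, edgeR adjusted p = 1.75e-13) and was not called against Undifferentiated (-0.20 ± 0.11). Slit2 thus stood in Lysfree near its Undifferentiated level, while Slit1 was near 0 in Undifferentiated. The receptors were scarce, each with a mean of at most 0.126 FPKM in every group. Robo1 was at 0.0300 ± 0.00714, 0.0189 ± 0.0148 and 0.0107 ± 0.00722 FPKM, and Robo2 had at most 3 counts in any library, with neither called. Robo3 was at 0.126 ± 0.0266, 0.0115 ± 0.0101 and 0.0152 ± 0.0153 FPKM, lower in Lysfree than in Undifferentiated (-2.88 ± 0.68 on the log2 scale, edgeR adjusted p = 0.000766) and not called in Lysfree vs Differentiated, and Robo4 had at most 1 count in any library.

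Of 29 genes of Slit and Robo signalling, 5 of 27 tested rose in Lysfree vs Differentiated and none fell, whereas in Lysfree vs Undifferentiated none of 28 rose and 2 fell, and in Differentiated vs Undifferentiated none of 28 rose and 7 fell. Srgap3 and Srgap1, GTPase-activating proteins that bind Robo receptors, were higher in Lysfree than in Differentiated by 2.69 ± 0.14 and 1.64 ± 0.13 on the log2 scale (edgeR adjusted p = 1.46e-12 and 1.96e-09). Srgap3 was at 7.20 ± 0.669, 0.952 ± 0.204 and 5.89 ± 0.230 FPKM in Undifferentiated, Differentiated and Lysfree, so its Lysfree level was near that of Undifferentiated. Enah, an actin regulator downstream of Robo, was at 4.33 ± 0.143 and 10.1 ± 0.990 FPKM in Differentiated and Lysfree (1.28 ± 0.09, edgeR adjusted p = 2.85e-10). Ntn1, netrin-1, another guidance protein, was lower in Lysfree than in Undifferentiated, with 24.4 ± 0.247 and 6.82 ± 0.700 FPKM (-1.79 ± 0.11, edgeR adjusted p = 2.90e-15). Neuron markers moved in both directions in Lysfree vs Differentiated. The sum of the 8 markers was 1.76 to 2.15 FPKM in Undifferentiated, 0.557 to 0.608 in Differentiated and 1.98 to 2.22 in Lysfree, and most of it was Map2. Tubb3 was at 0.0508 ± 0.0451 FPKM in Differentiated and 0.585 ± 0.269 in Lysfree (edgeR adjusted p = 0.000197), and Map2 rose too (1.98 ± 0.16 on the log2 scale, edgeR adjusted p = 1.33e-09). Snap25 fell from 0.0582 ± 0.0268 FPKM to a value listed at 0 (edgeR adjusted p = 0.00273), and Elavl3 and Syp were not called in this comparison. Against Undifferentiated, Tubb3 was called higher (2.25 ± 0.56 on the log2 scale, edgeR adjusted p = 0.00131). Elavl3 was called higher there too (edgeR adjusted p = 0.0218), at 8 counts or fewer in every library. Map2, Snap25 and Syp were not called against Undifferentiated. The part of these markers in the level of Slit1 was not tested. Rbfox3, Gad1 and Slc17a6 were at the floor in all libraries.

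Rhag had no company among the other Rh genes. Rhbg and Rhcg, the ammonium transporters of kidney and other epithelia, were listed at 0 in all 9 libraries. Rhd, the Rh antigen that Rhag pairs with in red cells, was at 0.250 ± 0.0665, 0.0466 ± 0.0510 and 0.157 ± 0.10 FPKM (SD, n = 3) in Undifferentiated, Differentiated and Lysfree and was not called in Lysfree vs Differentiated (edgeR adjusted p = 0.241) or Lysfree vs Undifferentiated (0.529). Of 19 genes of the Rh family, ammonium transport and the red cell membrane complex, 11 were at the floor in all libraries, and of 12 tested in Lysfree vs Differentiated 2 rose and 2 fell. In Lysfree vs Undifferentiated 3 of 12 rose and 2 fell, and in Differentiated vs Undifferentiated none of 13 rose and 1 fell. That one was Rhd, and the call was lost without Differentiated 1 (edgeR adjusted p = 0.129), Differentiated 3 (0.0748), Undifferentiated 1 (0.127) or Undifferentiated 2 (0.0504).

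The 2 that rose over Differentiated are not particular to red cells. Cd47, a widely made surface protein that belongs to the Rh complex in red cells, was at 35.2 ± 2.25, 28.7 ± 1.11 and 90.8 ± 13.7 FPKM (log2 fold change over Differentiated of 1.72 ± 0.10, edgeR adjusted p = 6.69e-12). Aqp1, a water channel, was at 6.90 ± 0.614, 5.66 ± 0.325 and 22.8 ± 1.48 FPKM (2.07 ± 0.11, edgeR adjusted p = 3.45e-12). Both also rose over Undifferentiated, by 1.41 ± 0.10 and 1.77 ± 0.12 on the log2 scale (edgeR adjusted p = 4.92e-13 and 7.66e-14). The other gene of the list that rose over Undifferentiated was Sptb, a spectrin of the red cell membrane, by 1.35 ± 0.33 (edgeR adjusted p = 0.00115). Sptb was at 0.0755 ± 0.0210, 0.111 ± 0.0137 and 0.189 ± 0.0488 FPKM, and its change over Differentiated (0.83 ± 0.29) missed the 2-fold limit. Gypc, glycophorin C, fell from 21.9 ± 0.454 in Differentiated to 7.92 ± 0.462 FPKM in Lysfree (-1.40 ± 0.11, edgeR adjusted p = 1.07e-09), and Dmtn, dematin, from 0.339 ± 0.0813 to 0.0714 ± 0.0144 FPKM (-2.18 ± 0.31, edgeR adjusted p = 5.92e-06). No erythroid marker was called higher in Lysfree than in another group. Of 12 found, 9 were at the floor in all libraries, and their summed FPKM was 0.360 to 0.736 in Lysfree, 3.99 to 4.24 in Differentiated and 4.55 to 5.68 in Undifferentiated. Most of this was Epor, the erythropoietin receptor, at 5.05 ± 0.589, 3.58 ± 0.299 and 0.468 ± 0.131 FPKM (edgeR adjusted p = 4.63e-09 for Lysfree vs Differentiated). Klf1 also fell in that comparison (edgeR adjusted p = 0.0248), at 8 counts or fewer in every library, and Alas2 was not called in either Lysfree comparison. Hba-a2, Hbb-bs, Hbb-bt, Tal1 and Gfi1b were listed at 0 throughout.

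**Figure D3:**
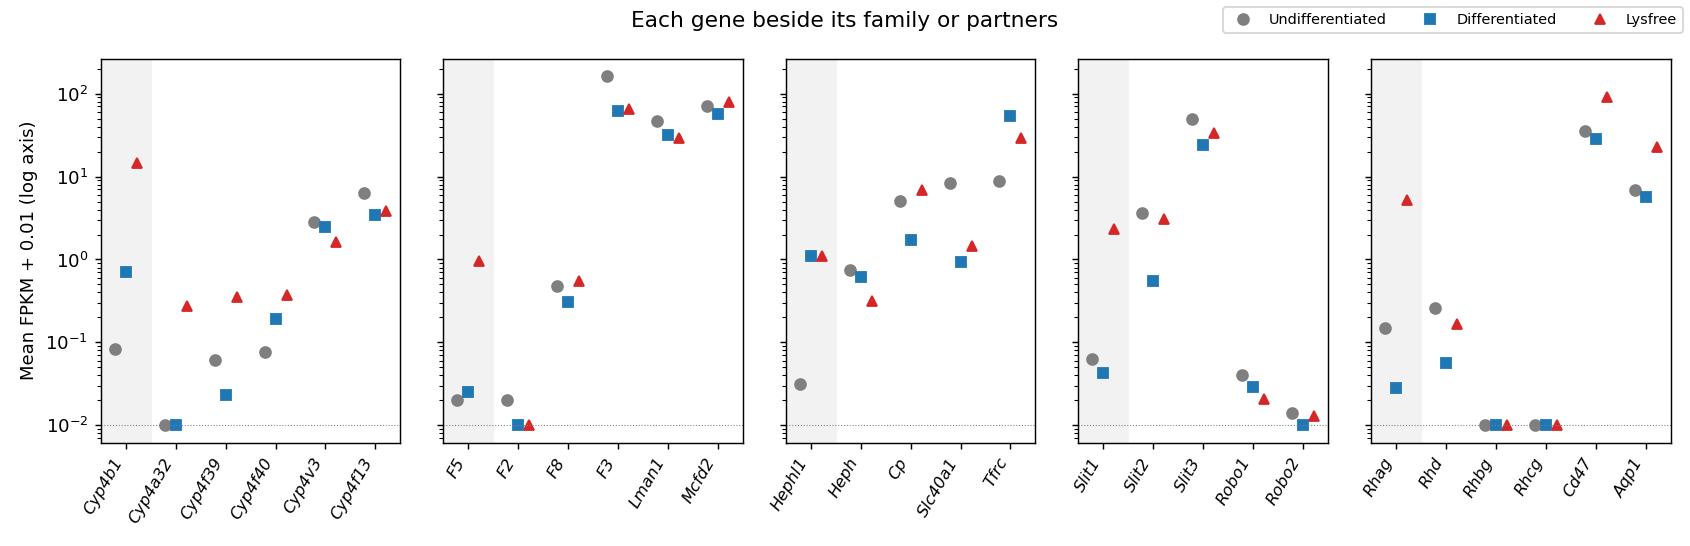
Mean FPKM + 0.01 (log axis) of each of the 5 genes (grey band) beside genes of its family or its partners, by group; the dotted line marks a value of 0. F3 beside F5 and Slit3 beside Slit1 stay above 20 FPKM in every group, while Rhbg and Rhcg beside Rhag lie on the line in every group.

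The nearest genes on the chromosomes were compared as well, since a change over a whole stretch would include them. Of the 2 nearest protein-coding genes on each side, 20 in all, 14 were tested in Lysfree vs Differentiated, where 5 rose and 2 fell, beside 8.14% and 10.5% of all genes. In Lysfree vs Undifferentiated 6 of 14 rose and 1 fell, beside 5.52% and 8.76%, and in Differentiated vs Undifferentiated 3 of 13 rose and none fell, beside 10.4% and 11.4%. Neighbours share a chromosome stretch and are few. Cyp4a32 lies 3.12 kb from the end of Cyp4b1 on the opposite strand, pointing towards it, and rose as given. Beside F5, Selp, P-selectin, ends 1.81 kb before its start on the same strand and was at 0.0223 ± 0.00692 FPKM in Differentiated and 0.189 ± 0.0730 in Lysfree (log2 fold change of 3.05 ± 0.63, edgeR adjusted p = 0.000461). Slc19a2, a thiamine transporter 28.8 kb on the other side of F5, was at 18.5 ± 1.00 and 36.8 ± 5.20 FPKM (1.05 ± 0.10, edgeR adjusted p = 3.06e-08), but without Lysfree 1 its change was 0.92 and missed the 2-fold limit, as it did against Undifferentiated (1.11, or 0.96 without Lysfree 1).

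Panx1, a channel gene 6.36 kb from the end of Hephl1 on the same strand, was at 0.290 ± 0.0712, 0.270 ± 0.102 and 1.23 ± 0.168 FPKM in Undifferentiated, Differentiated and Lysfree. It rose in Lysfree vs Differentiated by 2.22 ± 0.25 on the log2 scale (edgeR adjusted p = 1.80e-07), the comparison in which Hephl1 stood level. No neighbour of Slit1 rose in this comparison. Arhgap19, 22.9 kb from its start, fell from 6.45 ± 0.0596 FPKM in Differentiated to 0.933 ± 0.221 in Lysfree (-2.73 ± 0.16, edgeR adjusted p = 8.42e-12), Frat1 fell from 0.329 ± 0.0938 FPKM to a value listed at 0 (edgeR adjusted p = 2.72e-05; its call against Undifferentiated, 0.0424, was lost without any 1 Lysfree library, at 0.0807 to 0.107, and without Undifferentiated 2 or Undifferentiated 3, at 0.144 and 0.107), and AI606181 and Gm340 were not called. Against Undifferentiated, Gm340 rose by 1.36 ± 0.28 on the log2 scale (edgeR adjusted p = 0.000153). Beside Rhag, 9130008F23Rik at 34.7 kb was at 1.29 ± 0.0779 and 4.05 ± 0.564 FPKM (1.72 ± 0.19, edgeR adjusted p = 2.24e-07), while Crisp2, 4.12 kb before its start, had 0 counts in Differentiated and at most 6 in a Lysfree library and was not called (edgeR adjusted p = 0.114). Only F5 is overlapped by annotated genes. Of these Gm16588 had 1 count in all and Gm16548 had 0. How many reads of F5 were left uncounted through the overlap was not measured. The strand setting of the counting is not given in the sources used here, so reads of a gene and of its antisense partner cannot be told apart.

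**Figure D4:**
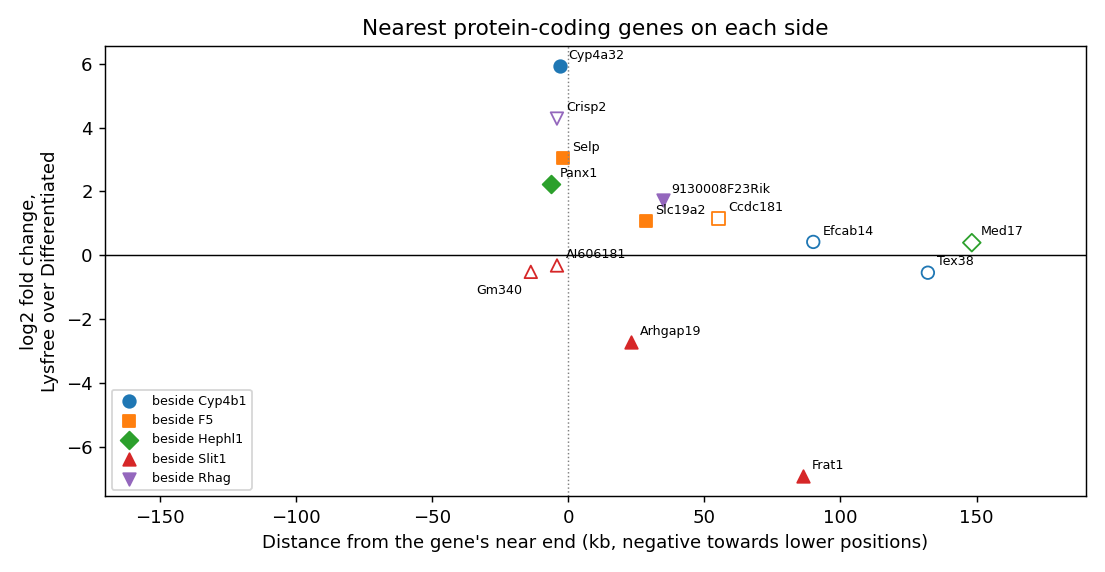
Fitted log2 fold change of Lysfree over Differentiated for the 14 tested neighbouring genes against their distance in kb; filled marks passed the test, open marks did not, and the marker shape gives the gene they lie beside. The filled marks of Cyp4a32 (3.12 kb), Selp (1.81 kb) and Panx1 (6.36 kb) lie high and close, those of Arhgap19 and Frat1 lie below 0, and for Cyp4a32, Crisp2 and Frat1 the height depends on the fitted prior because a group is listed at 0.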

How the data were processed

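Poly A libraries of 3T3-L1 cells were grouped by their labels. The authors mapped reads to mm10 with HISAT2 2.0.5 and deposited raw read counts per gene (featureCounts 1.5.0-p3 per the labels); the annotation release and strand setting are not given in the sources used here. The authors also deposited FPKM, used here for levels. Identifiers and positions are those of the deposited tables, and exon numbers are those of the longest coding transcript in GENCODE vM21.

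Counts were tested with edgeR 4.0.16 in R 4.3.3 (glmQLFit and glmQLFTest, TMM, Benjamini-Hochberg adjustment over all genes with a count in any of the 6 libraries of a comparison). DEGs passed 0.05 after adjustment and changed at least 2-fold. The 5 genes received no test, because their levels chose them. Their ratios are of mean counts scaled by TMM library sizes, with exact 95% binomial intervals on summed counts. In ratios over a group with at most 3 counts in every library, that group was set at 3. The scripts were tested on simulated data. Likeness used log2 CPM with a prior count of 2, among genes with a mean of at least 1 CPM in Lysfree.

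The genes and the lists were chosen with earlier results of these data known. From each list, the family or partners of a gene were named, and up to 4 DEGs. These DEGs had the largest change and a mean of at least 1 CPM. Also named were the 2 nearest coding genes on each side, overlapping genes, the 5 most alike and the genes with nearly all counts in Lysfree. Cyp4f18, the lesser Cyp4 genes, Sptb and single markers were named after their values were seen. Alternatives were DESeq2 1.42.0, other size factors, filters on low counts, all 9 libraries in a single fit, the replicate number as a block, no fold limit, limma 3.58.1 on log2(FPKM + 1) and log2(FPKM + 0.1), and leaving out each replicate. For the neighbouring genes, the alternatives were added after seeing the data. A few genes that this rule would name are not reported here.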

Additional observations from a re-analysis of the deposited data

How the results depend on the processing

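The ratios of the 5 genes changed little with the scaling of the counts, and the largest shifts came from leaving out a library of the group with few counts. Leaving out single libraries gave 38.4 to 68.1 for F5, 20.8 to 23.8 for Cyp4b1, 49.0 to 110.2 for Slit1, 59.5 to 77.1 for Rhag and 0.926 to 1.13 for Hephl1 in Lysfree over Differentiated. In Lysfree over Undifferentiated it gave 44.3 to 99.4 for F5, 150 to 212 for Cyp4b1, 37.9 to 61.0 for Slit1, 32.3 to 53.9 for Rhag and 36.1 to 56.7 for Hephl1. Where the low libraries left all had at most 3 counts they were set at 3, which holds the ratio down. This applied to Cyp4b1, F5 and Hephl1 without Undifferentiated 1, to F5 without Differentiated 2, and to Rhag over Differentiated throughout. These ranges therefore do not show how far such ratios would rise with no floor set. The ratio of mean FPKM was not run for Rhag in Lysfree over Differentiated, whose group is at the floor. On the listed genes, limma on log2(FPKM + 1) called 18 for Lysfree vs Differentiated, where edgeR called 33, and 17 for Lysfree vs Undifferentiated, where edgeR called 31; adding 1 shrinks the change of weak transcripts. Without the fold limit the calls were 66, 66 and, for Differentiated vs Undifferentiated, 64 in place of 29. DESeq2 called 32, 30 and 26, and leaving out single libraries 30 to 35, 29 to 32 and 25 to 30.

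Replicate numbers are shared by the groups, and the deviations of same-numbered libraries had correlations of -0.285 to 0.264. In Lysfree vs Undifferentiated, Lysfree 1 and Lysfree 2 correlated best with their own number (0.228 and 0.264), but Lysfree 3 did not (-0.156). In Lysfree vs Differentiated only Lysfree 3 did (0.0617). In no comparison did all replicates do so, and they are not treated as pairs. With the replicate block the calls were 32, 31 and 25. For the neighbouring genes, limma on log2(FPKM + 1) called 2, 1 and 1 where edgeR called 7, 7 and 3, and a limit of 10 counts in every library left 4, 4 and 2. Of 83 calls on named genes, none changed direction under any alternative and 53 passed under each alternative that tested them; 29 of the 53 losses were with limma on log2(FPKM + 1). Ratios over a group of 20 counts or fewer in all are limited by those counts.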

Other observations

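A list of 33 amino acid response genes, known targets of the kinase and transcription factor pathway that senses uncharged tRNA, was measured in the same libraries. The entry used for Ddit3 (ENSMUSG00000116429) had 0 counts in every library and was not tested. Only 1 entry was used per symbol, so nothing is read about Ddit3. In Lysfree vs Undifferentiated 17 of 32 tested rose and 1 fell, beside 5.52% and 8.76% of all genes, and in Differentiated vs Undifferentiated 15 of 32 rose and none fell, beside 10.4% and 11.4%. In Lysfree vs Differentiated, the comparison by lysine, 5 of 32 rose and 3 fell, beside 8.14% and 10.5% of all genes, with a median log2 fold change of 0.10 against -0.06 over all genes. Atf3 was at 0.925 ± 0.317 FPKM (SD, n = 3) in Undifferentiated, 24.0 ± 0.361 in Differentiated and 29.2 ± 1.21 in Lysfree. Stc2 rose in Lysfree over Differentiated by 1.90 ± 0.16 on the log2 scale (SE, edgeR adjusted p = 2.92e-09) and Slc6a9, a glycine transporter, by 1.61 ± 0.11 (edgeR adjusted p = 5.83e-11). Fgf21 fell by 2.73 on that scale, from 20.4 ± 2.51 to 2.94 ± 0.379 FPKM (edgeR adjusted p = 2.92e-11), and Slc7a3, a carrier of lysine and arginine, from 0.422 ± 0.0546 to 0.107 ± 0.0760 FPKM (edgeR adjusted p = 0.00142). Asns, asparagine synthetase, was at 172 ± 1.08 FPKM in Differentiated and 163 ± 25.1 in Lysfree and was not called between them (edgeR adjusted p = 0.968). The list was chosen with earlier results of these data known, and its link to the 5 genes was not tested.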
